A study of Mus musculus with 6 samples.

Results

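Peroxisomes are small membrane-bound organelles that shorten very long-chain, branched and dicarboxylic fatty acids, break down hydrogen peroxide and make the precursors of ether lipids such as plasmalogens. Their assembly depends on the peroxins, the products of the Pex genes, which insert the membrane proteins, import the folded matrix enzymes and divide the organelle. In adipose tissue they are best known from brown fat, whose many peroxisomes multiply in the cold, and from genes that are controlled by the fatty acid receptor PPARα and its partners. The genes described here are 38 listed genes of peroxisome assembly, fatty acid oxidation and ether lipid synthesis, of 15306 genes tested in inguinal white adipose tissue (iWAT). Each was chosen by name and read from probes made against a RefSeq transcript of the gene. The list holds 13 peroxins, 14 enzymes of fatty acid oxidation, 5 transporters and membrane or acyl-export proteins, 3 enzymes of ether lipid synthesis, and catalase with 2 Nudix hydrolases.

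RNA came from the whole iWAT of 10-week-old mice on a C57BL/6J background, backcrossed for at least 7 generations, with 3 arrays of Zip13-KO mice and 3 of their wild-type (WT) littermates. Zip13 (Slc39a13) encodes a zinc transporter of intracellular vesicles, and in the Zip13-KO mice a Neo cassette takes the place of exons 6 to 8 in every cell of the body, so that adipocytes are not the only cells without it. All mice ate powdered feed because the Zip13-KO mice have too few teeth, and lived in a 12 h light and dark cycle. The arrays are called triplicate experiments on these mice. Unless each array stands for its own animal, the p-values measure only the spread between these samples, which may be partly technical.

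On the array of 55681 probes, median processed signals were 39.2 to 40.6 on the WT arrays and 33.2 to 35.0 on the Zip13-KO arrays. There were 0 saturated spots. Signals were taken as log2 and quantile normalised, so every value below is a log2 signal that can be compared between arrays for 1 probe but not between probes. Genotypes were compared with limma over all 15306 genes. A gene is said to have risen or fallen where its Benjamini-Hochberg adjusted p was under 0.05, and is called where its log2 change was also over 0.58, the study's own threshold, which is close to 1.5-fold. Slc39a13 itself read 11.30, 10.87 and 10.71 on the WT arrays and 6.76, 6.67 and 6.47 on the Zip13-KO arrays, a fall of 20.1-fold (adjusted p = 0.00133). Like Slc39a13, all 38 peroxisomal genes stood above background on every array of both genotypes, so that none was lost to the filter on dim probes. WT replicate 1 stood apart from the other WT arrays in these genes: it was the lowest WT array for 35 of the 38, and the main counts of called peroxisomal genes are also given without it. The position that the file headers give on the slide starts with 1 for WT replicates 1 to 3 and Zip13-KO replicate 1, and with 2 for the other 2 Zip13-KO arrays.

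Most of the listed genes were higher in Zip13-KO iWAT. Of the 38, 34 rose (89.5%, against 19.3% of all genes tested), 1 fell (Far1, with 15.1% of all genes falling) and 3 did not pass the test (Acox3, Pxmp2 and Agps). With the threshold of 0.58 on the log2 scale 26 were called higher (68.4%, against 10.4% of all genes) and 0 were called lower (8.36% of all genes), although 1 was lower at adjusted p under 0.05. The median change was 0.74 on the log2 scale, or 1.66-fold, where that of all genes was 0.00. All 3 Zip13-KO arrays lay above all 3 WT arrays for 34 of the 38 genes, a pattern that 29.1% of all genes showed, and below them for 1, as did 25.9% of all genes. Without WT replicate 1 the number called higher was 20 and the median change 0.60, and without Zip13-KO replicate 1 the number was 17. Of all genes 1585 were called higher with every array, 1246 without WT replicate 1 and 966 without Zip13-KO replicate 1. With the slide position as a term, a fit that sets Zip13-KO replicate 1 alone against WT, 0 of the 38 and 0 of all genes were called higher, and the median change of the 38 was 0.74. The list was drawn up with results of these data known, so these shares describe it and do not test it.

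**Figure D1:**
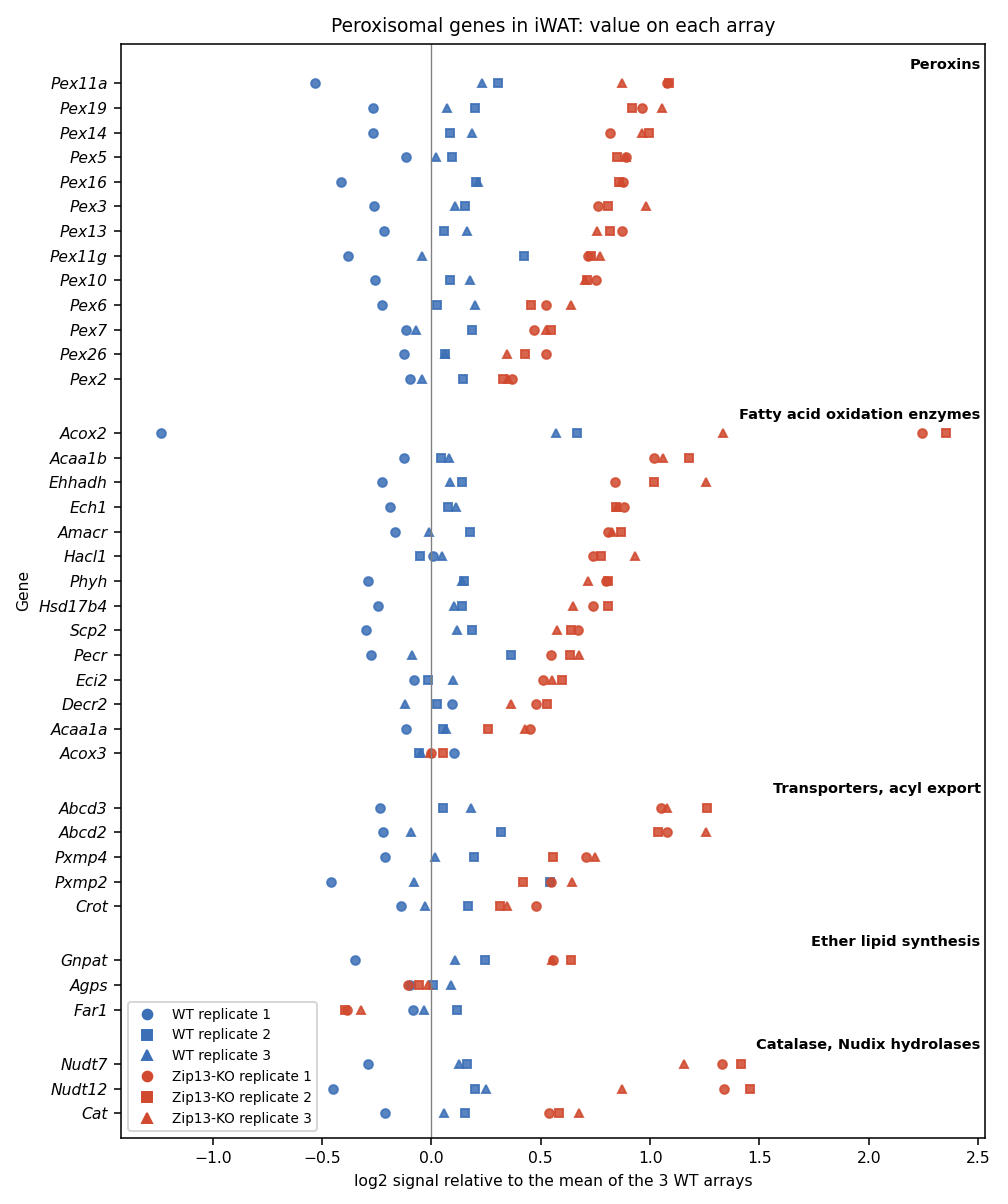
Log2 signal of each of the 38 peroxisomal genes on each array, less the mean of the 3 WT arrays (x axis), by role and, within a role, by size of change (y axis). Blue marks are WT and red marks Zip13-KO, with a shape for each replicate. The red marks lie to the right of all blue marks for 34 genes, overlap them for Acox3, Pxmp2 and Agps, and lie to the left for Far1.

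Taking the median of the 38 genes on each array, relative to the WT mean of each gene, the WT arrays stood at -0.22, 0.15 and 0.08 and the Zip13-KO arrays at 0.74, 0.75 and 0.73. The Zip13-KO arrays were nearly equal while the WT arrays were spread by replicate 1, and for 35 of the 38 genes the SD was larger among the WT arrays. None of the Zip13-KO arrays was regularly the highest or lowest, each being lowest for 12 or 13 genes.

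The peroxins rose, with a median of 0.82. Of the 13, 13 passed the test (100%, against 19.3% of all genes). Called were 9 (69.2%, against 10.4% of all genes), and 8 without WT replicate 1. Membrane assembly starts with Pex19, the cytosolic carrier of new membrane proteins. It read 10.40, 10.86 and 10.73 in WT and 11.63, 11.58 and 11.72 in Zip13-KO, a change of 0.98 (SE 0.13, adjusted p = 0.00669). Its docking partner on the membrane, Pex3, went from 10.67, 11.08 and 11.03 to 11.69, 11.73 and 11.91, a change of 0.85 (SE 0.14, adjusted p = 0.00906). Pex16, which brings Pex3 to the membrane, went from 11.54, 12.16 and 12.17 to 12.83, 12.81 and 12.82 (0.87, SE 0.18, adjusted p = 0.0160). For all these the lowest Zip13-KO array was above the highest WT array by more than 0.60. The call of Pex16 was lost without Zip13-KO replicate 1 or 2, with adjusted p of 0.0583 and 0.0549.

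Matrix enzymes are fetched by soluble receptors. Pex5, the receptor for the signal at the C-terminus that most matrix enzymes carry, had 10.08, 10.29 and 10.22 in WT and 11.09, 11.05 and 11.09 in Zip13-KO, a change of 0.88 (SE 0.08, adjusted p = 0.00443). Pex7, the receptor for the rarer N-terminal signal, had 10.29, 10.59 and 10.33 against 10.87, 10.95 and 10.93, a smaller change of 0.51 (SE 0.10, adjusted p = 0.0141) that did not reach the fold threshold. Receptor and cargo then dock at Pex13 and Pex14. Pex13 changed by 0.82 (SE 0.12, adjusted p = 0.00714), from 11.92, 12.20 and 12.31 to 13.02, 12.96 and 12.90. Pex14 changed by 0.92 (SE 0.14, adjusted p = 0.00759), from 8.95, 9.31 and 9.41 to 10.04, 10.22 and 10.18. Both docking genes were therefore called, as was Pex5. No WT array reached the Zip13-KO arrays in any of these receptors and docking factors, a pattern that 29.1% of all genes showed.

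The receptors are recycled by a ubiquitin ligase that holds Pex2 and Pex10 and by an ATPase that holds Pex6 and is tethered by Pex26, and 3 of the 4 listed genes among these stayed below the fold threshold. Pex10 read 7.39, 7.73 and 7.82 in WT and 8.40, 8.36 and 8.35 in Zip13-KO and was called (0.72, SE 0.13, adjusted p = 0.0107). Pex2 moved from 10.60, 10.84 and 10.65 to 11.06, 11.02 and 11.04, a change of 0.35 (SE 0.09, adjusted p = 0.0279). Pex6 rose by 0.54 (adjusted p = 0.0230) and Pex26 by 0.43 (adjusted p = 0.0170), both below the fold threshold. A second probe of Pex6 gave 0.23 and did not pass over all probes (adjusted p = 0.134), while a second probe of Pex26 gave 0.85. Pex6 and Pex7 were called in some other settings, Pex6 at 0.64 without WT replicate 3 and Pex7 at 0.61 without WT replicate 2.

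Of the division factors, which elongate the membrane before fission, Pex11a had the largest change of any peroxin. It read 11.83, 12.67 and 12.59 in WT and 13.44, 13.45 and 13.23 in Zip13-KO, a change of 1.01 (SE 0.23) or 2.01-fold (adjusted p = 0.0217). Pex11g read 10.65, 11.46 and 10.99 against 11.75, 11.77 and 11.81, a change of 0.74 (SE 0.20, adjusted p = 0.0341). In both the WT arrays were widely spread, with replicate 1 lowest, and none reached the Zip13-KO arrays. Neither call was firm: leaving out any 1 Zip13-KO array took Pex11a to adjusted p between 0.0503 and 0.0743 and Pex11g to between 0.0902 and 0.0941, and without WT replicate 1 or 3 the change of Pex11g was 0.55 (adjusted p = 0.0449) or 0.72 (adjusted p = 0.0773).

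The enzymes of fatty acid oxidation had a median change of 0.75. Of the 14, 13 rose (92.9%, against 19.3% of all genes). Called were 10 (71.4%, against 10.4% of all genes), and 8 without WT replicate 1. The chain-shortening cycle opens with an acyl-CoA oxidase, which passes electrons to oxygen and makes hydrogen peroxide. Acox2, the oxidase for branched acyl chains and bile acid intermediates, had the largest change of the 38 genes in these values. It read 3.95, 5.86 and 5.76 in WT and 7.43, 7.54 and 6.52 in Zip13-KO, a change of 1.98 (SE 0.57) or 3.93-fold (adjusted p = 0.0409). WT replicate 1 lay far below and Zip13-KO replicate 3 nearest to WT, and the genotypes did not overlap. Its call was lost without WT replicate 3 (adjusted p = 0.0508) and without Zip13-KO replicate 1, 2 or 3 (0.120, 0.118 and 0.0554), with changes of 1.79 to 2.30. The size also hung on WT replicate 1, without which it was 1.36, and on the signal used: it was 1.29 in the deposited table and without background correction, and 1.09 with normexp correction, where Nudt7 had the largest change (1.26). Acox3, the oxidase for pristanoyl-CoA, read 11.26, 11.10 and 11.11 in WT and 11.15, 11.21 and 11.15 in Zip13-KO, and its change of 0.02 (95% confidence interval -0.17 to 0.21) did not pass (adjusted p = 0.890). Its other probes disagreed, at -0.03 and, for a probe against a predicted transcript, -0.36 (adjusted p over all probes = 0.0445).

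The next steps, hydration and dehydrogenation, are carried by bifunctional enzymes. Ehhadh, which serves straight and dicarboxylic chains, read 10.54, 10.91 and 10.86 in WT and 11.61, 11.79 and 12.02 in Zip13-KO, a change of 1.04 (SE 0.15) or 2.05-fold (adjusted p = 0.00727). Hsd17b4, which serves very long and branched chains, moved from 13.15, 13.54 and 13.51 to 14.14, 14.21 and 14.05 (0.73, SE 0.12, adjusted p = 0.0102). The cycle closes with a thiolase. Acaa1b read 10.92, 11.08 and 11.12 in WT and 12.06, 12.22 and 12.10 in Zip13-KO, a change of 1.08 (SE 0.09) or 2.12-fold (adjusted p = 0.00398), the smallest adjusted p of the 38. Acaa1a, its close paralogue, moved from 14.53, 14.70 and 14.72 to 15.10, 14.91 and 15.08, a change of 0.38 (SE 0.09, adjusted p = 0.0265) and not called. The transcripts of these paralogues are nearly identical, and how far each probe reads both was not tested, so their separate values are uncertain. Scp2, which encodes the thiolase for branched chains and a sterol carrier, read 14.92, 15.40 and 15.34 against 15.89, 15.86 and 15.79 (0.63, SE 0.14, adjusted p = 0.0198). Its call was lost without WT replicate 1 (a change of 0.48) and without Zip13-KO replicate 1, 2 or 3 (adjusted p = 0.0710, 0.0665 and 0.0516), and its second probe gave 0.76.

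Branched chains need preparation, and the genes for it rose too. Phyh, the phytanoyl-CoA hydroxylase that starts alpha-oxidation, read 12.50, 12.94 and 12.93 in WT and 13.59, 13.60 and 13.51 in Zip13-KO, a change of 0.77 (SE 0.14, adjusted p = 0.0108). Hacl1, the lyase that follows it, read 11.21, 11.15 and 11.25 against 11.94, 11.98 and 12.13, a change of 0.82 (SE 0.08, adjusted p = 0.00467). It is 1 of the 3 genes for which WT replicate 1 was not the lowest WT array. Amacr, the racemase that turns methyl-branched chains into the form the oxidases accept, read 10.12, 10.46 and 10.27 against 11.09, 11.16 and 11.11 (0.83, SE 0.10, adjusted p = 0.00600). No array of either genotype reached the other in these genes, where 29.1% of all genes lay wholly above WT. None of the calls of Phyh, Hacl1 and Amacr was lost when 1 array was left out.

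Unsaturated chains need isomerases and reductases. Ech1, a dienoyl-CoA isomerase of peroxisomes and mitochondria, read 13.14, 13.40 and 13.44 in WT and 14.21, 14.17 and 14.17 in Zip13-KO, a change of 0.86 (SE 0.10, adjusted p = 0.00541). Eci2, an enoyl-CoA isomerase, rose by 0.55 (SE 0.08, adjusted p = 0.00736), just short of the fold threshold. Decr2, the peroxisomal dienoyl-CoA reductase, rose by 0.46 (SE 0.09, adjusted p = 0.0143). Pecr, an enoyl-CoA reductase, was called at 0.62 (SE 0.17, adjusted p = 0.0347) on WT values of 10.75, 11.38 and 10.94 and Zip13-KO values of 11.57, 11.66 and 11.70. WT replicate 2 came within 0.19 of the lowest Zip13-KO array. The call of Pecr was lost without any array but WT replicate 2, with changes of 0.48 to 0.65 and adjusted p of 0.0617 to 0.0974, while Eci2 was called at 0.60 without WT replicate 3.

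**Figure D2:**
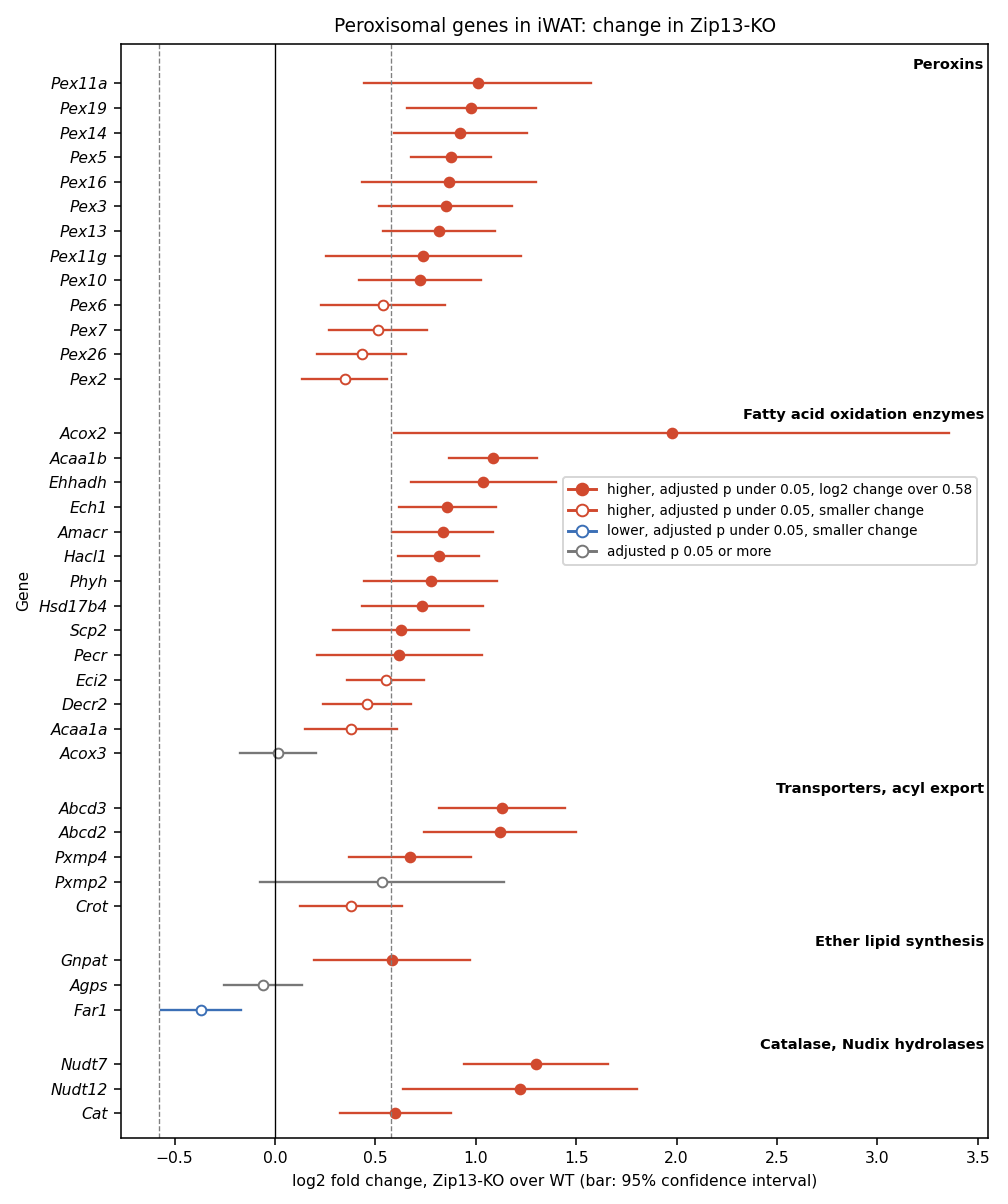
Log2 fold change of Zip13-KO over WT (x axis, with 95% confidence intervals from limma) for the 38 peroxisomal genes by role (y axis). Filled red points passed adjusted p under 0.05 with a log2 change over 0.58 (26 genes), open red points passed with a smaller rise (8 genes), the open blue point is Far1 and grey points did not pass; dashed lines stand at 0.58 and -0.58. For these values Acox2 is farthest to the right with the widest interval, and the ether lipid genes lie around 0.

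Among the transporters, those that carry acyl-CoA into the organelle had the largest changes. Abcd3, the ABC transporter for branched and dicarboxylic acyl-CoA, read 11.96, 12.25 and 12.38 in WT and 13.25, 13.46 and 13.27 in Zip13-KO, a change of 1.13 (SE 0.13) or 2.19-fold (adjusted p = 0.00527). Abcd2, which carries very long-chain acyl-CoA, read 7.64, 8.18 and 7.77 against 8.95, 8.90 and 9.12, a change of 1.12 (SE 0.16) or 2.18-fold (adjusted p = 0.00695). The lowest Zip13-KO array was above the highest WT array by 0.87 for Abcd3 and 0.72 for Abcd2. Crot, the carnitine octanoyltransferase that readies shortened chains for export, read 10.36, 10.67 and 10.48 against 10.98, 10.82 and 10.85, a rise of 0.38 (SE 0.11, adjusted p = 0.0369) that was not called.

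Of the membrane proteins, Pxmp4 was called at 0.67 (SE 0.12, adjusted p = 0.0124) and Pxmp2, a channel for small solutes, was not. Pxmp4 read 11.00, 11.41 and 11.23 in WT and 11.92, 11.77 and 11.96 in Zip13-KO. Pxmp2 read 10.56, 11.56 and 10.94 against 11.56, 11.44 and 11.66, a change of 0.54 with a 95% confidence interval of -0.07 to 1.14 (adjusted p = 0.141). WT replicate 2 lay among the Zip13-KO arrays for Pxmp2, and without that array the change was 0.81 and was called (adjusted p = 0.0233). The call of Pxmp4 was lost without WT replicate 1 (0.56) and without Zip13-KO replicate 1 (adjusted p = 0.0514).

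The genes of ether lipid synthesis had a median change of -0.06, and their members went different ways. Gnpat encodes the acyltransferase of the first step, on the inner face of the peroxisome. It read 13.16, 13.75 and 13.61 in WT and 14.06, 14.15 and 14.06 in Zip13-KO, a change of 0.58 (SE 0.16, adjusted p = 0.0363) that passed the threshold of 0.58 but is a fold of 1.497, just under 1.5. Agps encodes the synthase that next exchanges the acyl chain for a fatty alcohol. It read 10.38, 10.49 and 10.57 against 10.38, 10.43 and 10.47, a change of -0.06 (95% confidence interval -0.26 to 0.14, adjusted p = 0.588). Far1 encodes the reductase that supplies the fatty alcohol and sets the pace of the pathway. Its values of 8.07, 8.27 and 8.12 in WT and 7.76, 7.76 and 7.83 in Zip13-KO gave a fall of 1.29-fold (a log2 change of -0.37, SE 0.08, adjusted p = 0.0200).

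All WT arrays were above all Zip13-KO arrays for Far1, the reverse of Gnpat, and Agps overlapped. The other probes of Far1 were lower as well, at -0.48 and -0.71. The fall no longer passed without Zip13-KO replicate 1, 2 or 3 (adjusted p = 0.0749, 0.0749 and 0.0507), and Gnpat kept its call only without WT replicate 2: without WT replicate 1 its change was 0.41, and without WT replicate 3 or Zip13-KO replicate 1, 2 or 3 its adjusted p was 0.0569, 0.0968, 0.107 and 0.0853.

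Later steps of ether lipid synthesis run in the endoplasmic reticulum, and 9 of the 10 genes listed for them were tested. Of these 1 rose (11.1%, against 19.3% of all genes), 0 fell (15.1% of all genes) and the median was -0.04. The gene that rose was Agpat3, an acyltransferase, at 0.60 (adjusted p = 0.0254). The lowest value was that of Gdpd1, a lysophospholipase D, which read 9.35, 7.73 and 8.35 in WT and 7.15, 7.02 and 7.72 in Zip13-KO, a change of -1.18 (SE 0.42) that did not pass (adjusted p = 0.0744).

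Peroxisomes also hold enzymes that deal with hydrogen peroxide and free cofactors. All 3 listed were called (100%, against 10.4% of all genes), and 2 without WT replicate 1. Nudt7, a Nudix hydrolase that cleaves CoA and acyl-CoA, read 11.01, 11.47 and 11.43 in WT and 12.63, 12.72 and 12.46 in Zip13-KO, a change of 1.30 (SE 0.15) or 2.46-fold (adjusted p = 0.00527), and its second probe gave 1.07. Nudt12, which acts on NADH and related dinucleotides, read 6.45, 7.10 and 7.15 against 8.24, 8.36 and 7.77, a change of 1.22 (SE 0.24, adjusted p = 0.0141). Cat, catalase, read 11.46, 11.83 and 11.73 against 12.21, 12.26 and 12.35, a change of 0.60 (SE 0.11, adjusted p = 0.0131), with 0.74 at its second probe. In these values Nudt7 and Nudt12 came next to Acox2 in size. The genotypes did not overlap in any of them, where 29.1% of all genes lay wholly above WT. Without Zip13-KO replicate 1 or 2 the adjusted p of Nudt12 was 0.0553 and 0.0526, and the change of Cat was 0.49 without WT replicate 1 and 0.56 without Zip13-KO replicate 3, so that each lost its call there.

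Genes that act together were also compared with each other. For 13 pairs with related roles the difference between both log2 signals was taken on each array, which removes whatever moves both alike, and compared between genotypes by a two-sided exact permutation test. With 3 arrays against 3 this exact permutation test cannot go below p = 0.1, so none could pass 0.05, and after adjustment over the 13 pairs the smallest value was 0.186. In 7 pairs the genotypes did not overlap. Among single genes 29.1% of all genes lay wholly above and 25.9% wholly below WT. A within-array difference is another measure, and its share over other gene pairs was not taken. For the thiolases, relative to the WT mean the difference Acaa1a less Acaa1b was 0.01, 0.01 and -0.01 in WT and -0.57, -0.92 and -0.63 in Zip13-KO. Gnpat less Agps was -0.25, 0.24 and 0.01 in WT and 0.66, 0.70 and 0.57 in Zip13-KO. The difference between genotypes was -0.71 (SE 0.11) for the thiolases and 0.64 (SE 0.15) for the ether lipid enzymes.

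In the same way Pex5 changed by 0.36 more than Pex7 (SE 0.06), Ehhadh by 0.31 more than Hsd17b4 (SE 0.15) and Acox2 by 1.96 more than Acox3 (SE 0.74, and 1.29 without WT replicate 1). Pex2 changed less than Pex10, with a difference of -0.37 (SE 0.11), and Pex3 less than Pex19, with -0.13 (SE 0.05). The genotypes overlapped in the other 6 pairs. Those were Pex11a and Pex11g (0.27, SE 0.16), Pex13 and Pex14 (-0.11, SE 0.09), Pex6 and Pex26 (0.11, SE 0.12), Abcd2 and Abcd3 (-0.01, SE 0.19), Nudt7 and Nudt12 (0.08, SE 0.13), and Pxmp2 and Pxmp4 (-0.14, SE 0.18).

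**Figure D3:**
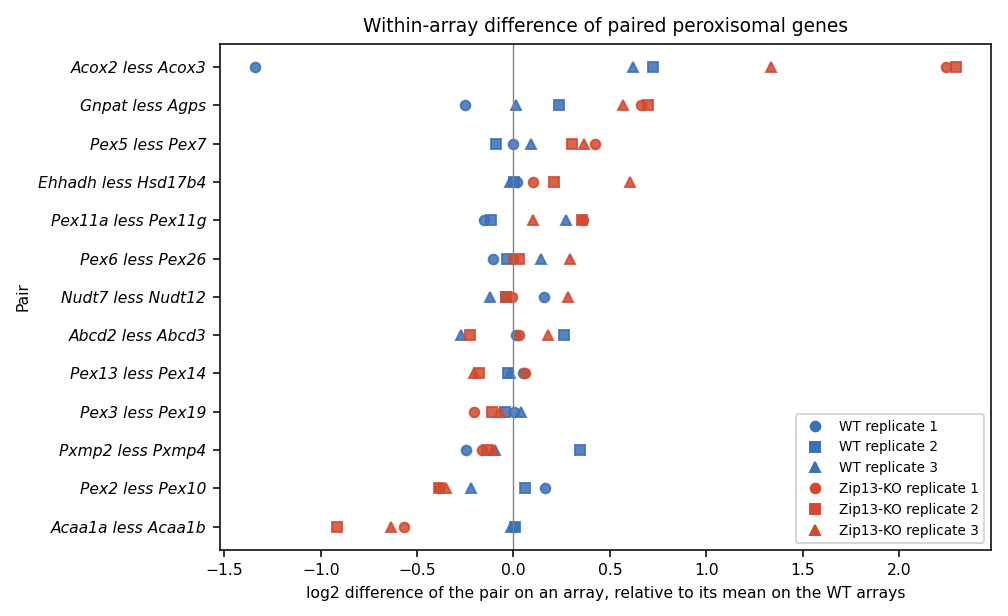
Difference between the log2 signals of 2 genes on the same array, less its mean over the WT arrays (x axis), for 13 pairs of peroxisomal genes (y axis). Blue marks are WT and red marks Zip13-KO, with a shape for each replicate. The genotypes are apart in 7 pairs, most widely for Acox2 less Acox3 and Acaa1a less Acaa1b, and mixed in the other 6.

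A further list held 50 peroxisomal genes outside the 38, of which 41 were tested. Of these 25 rose (61%, against 19.3% of all genes) and 0 fell (15.1% of all genes). With the fold threshold 16 were called higher (39%, against 10.4% of all genes) and 0 lower (8.36% of all genes). Without WT replicate 1 the number called higher was 13, where 1246 of all genes were. The median change was 0.45. Slc27a2, a very long-chain acyl-CoA synthetase and fatty acid transporter, stood out, at 6.88, 4.53 and 6.25 in WT and 9.65, 10.03 and 10.56 in Zip13-KO, a change of 4.19 (SE 0.61) or 18.3-fold (adjusted p = 0.00754). Without WT replicate 2, its lowest array, the change was 3.52 or 11.4-fold. Ddo, the D-aspartate oxidase, read 6.74, 7.44 and 7.93 against 9.53, 9.67 and 9.07 (2.06, SE 0.32, adjusted p = 0.00857). Both were apart between genotypes by more than 1.14. The other 4 of the 6 largest called changes were those of Acot4, an acyl-CoA thioesterase (1.48), Acbd4, an acyl-CoA binding protein (1.19), Hsdl2 (1.11), and Pmvk of isoprenoid synthesis (0.98). The lowest value of that list was that of Dao, the D-amino acid oxidase, at 4.31, 5.05 and 4.75 against 3.63, 3.98 and 4.33, a change of -0.72 (SE 0.25, adjusted p = 0.0663) with the genotypes overlapping.

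Mitochondria run the beta-oxidation of common fatty acids, and their genes had a larger median change than the peroxisomal ones. All 16 of 16 were called higher (100%, against 10.4% of all genes), with a median of 1.11. The changes ran from Etfa, a subunit of the electron transfer flavoprotein (0.77), to Hadhb, a subunit of the trifunctional protein (1.33). The median of the 38 peroxisomal genes less that of the 16 mitochondrial genes was 0.10, 0.03 and -0.07 on the WT arrays and -0.35, -0.45 and -0.31 on the Zip13-KO arrays. Of 10 regulators listed for peroxisomal and oxidative genes, 7 rose (70%, against 19.3% of all genes) and 0 fell (15.1% of all genes). Of these regulators 6 were called higher (60%, against 10.4% of all genes). Ppara, the gene of PPARα, was the highest, at 8.99, 9.55 and 10.15 in WT and 11.56, 11.97 and 11.25 in Zip13-KO, a change of 2.03 (SE 0.32, adjusted p = 0.00907). The lowest was Ppard, at 10.42, 10.47 and 10.56 against 10.43, 10.45 and 10.48, a change of -0.03 (adjusted p = 0.772).

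Markers of cell types moved with the genotype as well, and in whole tissue fewer cells of a type and less RNA per cell cannot be told apart. All 14 adipocyte markers were above background on all 6 arrays. Of these 8 rose (57.1%, against 19.3% of all genes) and 0 fell (15.1% of all genes). The median was 0.65, from Cfd (0.03) to Lep (1.07, and 0.15 without WT replicate 1). Cfd and Fabp4 are among the brightest signals, where quantile normalisation gives the arrays the same few values. Cfd read 17.49 on both WT replicate 2 and Zip13-KO replicate 1. The changes of such genes may be narrowed, and how far was not tested. The summed linear signal of the 14 markers was 783370 to 1073100 on the WT arrays and 1287600 to 1360700 on the Zip13-KO arrays. Array by array their median stood at -0.35, 0.24 and 0.15 in WT and 0.64, 0.62 and 0.63 in Zip13-KO, close to that of the peroxisomal genes and with the same WT array lowest. Subtracting the adipocyte marker median from that of the 38 genes left 0.13, -0.09 and -0.06 in WT and 0.10, 0.13 and 0.11 in Zip13-KO, which overlap. For the peroxins alone the same subtraction left 0.09, -0.10 and -0.04 against 0.12, 0.19 and 0.14, which do not, though 0.12 lies close to 0.09. Among single genes 29.1% lay wholly above WT, a share not taken for list medians, and the difference for the peroxins was not tested. Acaa1b, Abcd2, Abcd3, Nudt7 and Nudt12, with Acox2, had larger changes than any of the 14 adipocyte markers. The highest of those markers, Lep, was imprecise (1.07, SE 0.76), and Acaa1b, at 1.08, was barely above it. This ranking was not tested.

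Brown and beige adipocyte markers rose in 10 of 10 (100%, against 19.3% of all genes), with a median of 2.98. These markers ranged from Cox8b (1.64) to Ucp1, the uncoupling protein (5.16, and 5.78 without WT replicate 1, 4.54 without WT replicate 2 and 5.86 without Zip13-KO replicate 1). Of these 9 were above background on all 6 arrays, and their summed signal went from 37402 to 60366 in WT to 167070 to 263100 in Zip13-KO. The order of the Zip13-KO arrays in them was replicate 1 lowest and replicate 2 highest (2.63, 3.32 and 2.97), while the 38 peroxisomal genes were level. Macrophage markers fell in 10 of 12 (83.3%, against 15.1% of all genes), with a median of -1.26, from Clec4d (-4.29) to Itgam (-0.17, adjusted p = 0.221). Their summed signal was 84158 to 129050 in WT and 40281 to 49656 in Zip13-KO. WT replicate 1 was the highest array for them (0.36). The part of these cell types in the changes of the peroxisomal genes was not tested.

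Of the other cell types the tissue could hold, 0 of 11 skeletal muscle markers passed, with a median of 0.88 and Zip13-KO replicate 3 highest (2.01, against 0.54 or less on the others). Of 8 stromal markers 1 fell (12.5%) and of 10 lymph node markers 3 fell (30%), where 15.1% of all genes fell. The medians of these lists were -0.49 and -0.39, and 0 markers of either had a change above 0. Among 6 endothelial markers 3 rose (50%) and among 3 liver markers tested 1 rose (Alb, 33.3%), where 19.3% of all genes rose. For the mammary epithelium 0 of 5 markers passed. In the mammary list the milk protein genes Csn2, Csn3 and Wap, and Elf5, were well above background on 0 arrays. The keratin gene Krt8 was so on 2 arrays and Epcam on 3. Lalba and the keratin genes Krt5, Krt14 and Krt18 were so on all 6.

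**Figure D4:**
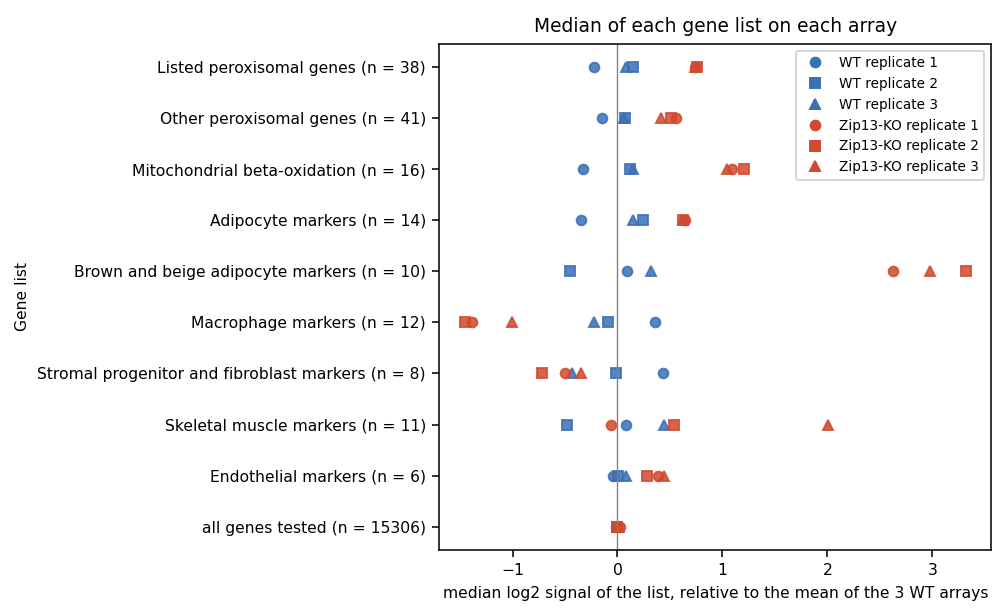
Median log2 signal of each gene list on each array, less the mean of the 3 WT arrays gene by gene (x axis), with the number of genes tested in each list (y axis). Blue marks are WT and red marks Zip13-KO, with a shape for each replicate. The listed peroxisomal genes and the adipocyte markers lie at similar places on all 6 arrays, the mitochondrial and the brown and beige genes farther right in Zip13-KO, and the macrophage markers to the left.

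Because PPARα with its partner RXR binds DR1, a direct repeat of AGGTCA spaced by 1 base, promoter windows were searched for it, on both strands and with up to 2 mismatches in the repeat. Windows run from 250 bases before to 50 after a transcription start (RefSeq, GRCm38.p6), and 31 of the 38 genes have one there. A match was found for 2 of the 31 genes (6.45%), where 4.4% of 27025 genes with a window have one, and no member matched with up to 1 mismatch (0.644% of genes). The windows that matched are printed because they show where the repeat lies, in capitals. Acox2 has another window, upstream of this one, without a match. In Acox2 the repeat lies 9 to 21 bases after the start, in Cat at -204 to -192, that is before it.
Acox2, chr14:8258790-8259089, minus strand: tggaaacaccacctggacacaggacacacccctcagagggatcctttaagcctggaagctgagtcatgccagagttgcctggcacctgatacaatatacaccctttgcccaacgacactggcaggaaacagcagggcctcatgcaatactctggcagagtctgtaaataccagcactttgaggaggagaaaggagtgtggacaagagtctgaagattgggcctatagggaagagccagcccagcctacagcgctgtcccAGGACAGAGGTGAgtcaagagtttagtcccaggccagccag
Cat, chr2:103485104-103485403, minus strand: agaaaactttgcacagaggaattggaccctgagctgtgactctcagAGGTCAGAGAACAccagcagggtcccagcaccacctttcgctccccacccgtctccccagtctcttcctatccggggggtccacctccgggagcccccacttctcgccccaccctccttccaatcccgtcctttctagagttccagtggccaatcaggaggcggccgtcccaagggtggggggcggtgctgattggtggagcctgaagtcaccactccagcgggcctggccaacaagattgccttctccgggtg

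Other short motifs were about as frequent in these windows as elsewhere or were rare. The AGGTCA unit alone, which is part of DR1, was present for 4 of the 31 genes (Cat, Pex11g, Phyh and Scp2, 12.9%) and for 18.1% of all genes. CCAAT was present for 15 of the 31 (48.4%), among them Acaa1a, Acaa1b, Ehhadh and Far1, and for 41.1% of all genes. The cyclic AMP response element TGACGTCA was present for 2 of the 31 (Pex11g and Pex13, 6.45%) and for 2.03% of all genes. A match of letters is a description of the window and says nothing of binding, and the absence of one says only that these letters are not in that window.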

How the data were processed

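RNA of 6 iWAT samples (3 WT, 3 Zip13-KO) was hybridised by the authors to 1-colour Agilent mouse arrays, with 59305 spots besides controls. The deposited scanner files (Feature Extraction 11.5.1.1) give a processed signal for each spot, an intensity corrected for background and not normalised between arrays. The authors also deposited a table of quantile-normalised log2 values, which had the rank order of the raw median signal and served as an alternative.

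Here log2 processed signals were quantile normalised, outlier spots left out, spots of a probe averaged, and probes kept when well above background on all 3 arrays of a genotype. A gene (RefSeq name by transcript accession, GRCm38.p6) was read from its brightest kept probe. Genotypes were compared with limma 3.58.1 in R 4.3.3 (lmFit, eBayes), with Benjamini-Hochberg adjustment over 15306 genes. Pairs of genes were compared by exact permutation tests. The script was tested on simulated data. The precision is limited by 3 arrays a genotype. Named are all 38 genes, Slc39a13, the highest and lowest gene of each other list and the 6 largest called changes of the further peroxisomal list, plus genes behind small counts or motif matches, named after their values were seen. Some results are not reported here. The genes and lists were chosen with earlier results of these data known. All arrays share 1 slide and 1 scan. Alternatives covered the signal, normalisation, filter, probe choice, variance model, thresholds, design and each array left out.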

Additional observations from a re-analysis of the deposited data

How the results depend on the processing

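Of 684 values for single genes (38 genes in 18 settings), 592 kept their direction and their call or lack of one, 80 kept direction but lost the call, 7 gained one and 5 changed sign. Taking the adjusted p alone, 113 lost and 1 gained a value under 0.05, 35 of them with slide position as a term. The 5 were all Acox3, whose change was near 0: -0.12 as the mean of its probes, -0.0025 with slide position as a term, and -0.0115 to 0.0679 with 1 array left out. Among the gene pairs the sign changed for Abcd2 and Abcd3 (-0.14 to 0.12 with 1 array left out), Nudt7 and Nudt12 (-0.0237 to 0.157) and Pxmp2 and Pxmp4 (-0.259 to 0.0364). The number of the 38 genes called higher was 26, where 1585 of all genes were. With 1 array left out it was 17 (without Zip13-KO replicate 1, 966 of all genes) to 28 (without WT replicate 2, 1657 of all genes). It was 13 at adjusted p under 0.01 and 18 by the methods' t-test after adjustment (1009 of all genes). With no filter on dim probes it was 22 (1381 of 21365 genes). It was 25 from the deposited table (1259 of all genes) and 28 with the 75th percentile of each array as scale (1722 of all genes). With slide position as a term it was 0: that fit rests on Zip13-KO replicate 1 alone against WT, assumes that this array varies like the others, and called 0 of all genes higher and 7 lower, while the median change stayed at 0.74. Without a fold threshold 1 of the 38 was lower (Far1). The median change of the 38 ranged from 0.60 (without WT replicate 1) to 0.83 (75th percentile). Of the other peroxisomal genes 16 were called higher, and 0 with slide position as a term, 25 without a fold threshold and 10 at adjusted p under 0.01; 0 were called lower, and 1 with no filter, 1 with the replicate block and 0 to 1 with 1 array left out (1 without WT replicate 1). Same-numbered arrays did not deviate together (correlations -0.02, 0.04 and -0.08), so the numbers are not taken as pairs. With the replicate block 21 of the 38, 14 of the other peroxisomal genes and 1310 of all genes were called higher. The cause of these differences was not tested. Averaging the spots of a probe before normalisation, chosen after seeing the data, gave 26 called genes. Small changes are limited by the 3 arrays a genotype.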
